A study of Mus musculus with 6 samples.

Results

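The 10 genes described here encode chemokine receptors and sphingosine 1-phosphate (S1P) receptors that steer lymphocytes between blood and tissue: Cxcr4, Ccr2, Ccr4, Ccr7, Ccr8, Ccr9, Cxcr3, Cxcr6, S1pr1 and S1pr4. They were taken by symbol from a table of 25865 genes, in which all 10 were found. The cells were group 2 innate lymphoid cells (ILC2s) of C57BL/6 mice, sorted from large intestine and labelled as colon. Both groups were first cultured for 5 days in medium with 4 cytokines at 10 ng/mL apiece: the growth factors IL-2 and IL-7 and the ILC2 activators IL-33 and IL-25. Toyocamycin was then present for 16 h in 3 samples, and the 3 Control samples received its vehicle. The labels state neither the dose, the vehicle nor the age of the mice. They also do not say whether the 3 samples of a group came from separate animals or cultures, so a p-value here reflects how far these 6 samples scatter, which could be technical scatter alone.

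Chemokine receptors are G protein-coupled receptors that turn a gradient of ligand into directed movement through Gi proteins and the GTPases of the Rac family. S1P receptors read the high S1P of blood and lymph and let lymphocytes leave tissue. In ILC2s, CXCR4 is known to bind CXCL12 and to hold progenitors in the bone marrow, CCR9 to guide cells to the gut, CCR4 and CCR8 to mark type 2 lymphocytes, and S1PR1 to permit exit of activated cells. Toyocamycin resembles adenosine and is known to block the RNase activity of IRE1, a sensor of unfolded protein, and ribosomal RNA processing.

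Each value is the number of reads of a gene after division by the size factor of its sample (a normalised read count), and the files held 22303455 to 36742639 reads assigned to genes in each sample. A level of 3 reads in a library, taken as the floor, equals 2.66 normalised reads in Control and 3.38 with toyocamycin on average. Of 14 ILC2 markers all 14 had reads, with summed levels of 487123 to 501378 in Control and 448519 to 485974 with toyocamycin. Single markers moved far in both directions under these sums: 5 were higher, 8 lower and 1 did not pass. Rora, a factor of ILC2 development, rose 13.1-fold, and the type 2 cytokine gene Il13 fell 6.95-fold. All 10 T cell markers had some reads, and their sum went from between 13881 and 14089 to between 22513 and 24837. Nearly all of it came from Cd28, which rose 3.06-fold, Bcl11b, which rose 1.22-fold, and Lat, which fell 1.86-fold. Of the CD3 chains, Cd3g was higher (149 ± 13.6 and 199 ± 31.4) and Cd3e (35.2 ± 0.778 and 6.13 ± 3.25) and Cd3d were lower, and Cd8a was below the floor on average in both groups. The 10 markers of monocytes, macrophages and dendritic cells, cells that can express Ccr2 and Ccr7, summed to 979.4 to 1431 and to 1209 to 1705, mostly Lyz2 and Cd68. Cd68 (448 ± 42.8 and 679 ± 8.86) and H2-Ab1 (96.7 ± 24.1 and 147 ± 33.9) were higher, Csf1r stood at 16.0 ± 4.89 and 31.5 ± 20.2, and Flt3 and Adgre1 were below the floor on average. Sums were 653 to 722 and 584 to 662 for 6 ILC3 markers, and 369.7 to 471 and 187 to 223 for 7 B and plasma cell markers. For 7 NK cell and ILC1 markers, with Klra8 at 0, they were 7258 to 7652 and 9534 to 10890, nearly all Gzma. They were 56.2 to 65.2 and 42.3 to 58.3 for 8 mast cell and basophil markers with Fcer1a at 0, 192 to 248 and 197 to 217 for 7 epithelial markers with Krt20 at 0, and 1371 to 1609 and 775 to 1127 for 8 fibroblast and endothelial markers. The part of these cells in the results was not tested. In bulk samples, fewer cells of a type and less RNA per cell cannot be told apart.

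With toyocamycin, single receptor transcripts changed in both directions. Cxcr4, the CXCL12 receptor, rose 30.9-fold, Ccr4, the receptor for CCL17 and CCL22, rose 4.73-fold, and S1pr4, a lymphocyte S1P receptor, rose 1.94-fold. Ccr2, the receptor for CCL2 and related monocyte chemoattractants, fell 3.8-fold, Ccr8, the receptor for CCL1 and CCL8, fell 3.7-fold, and Ccr7, the receptor for the lymph node chemokines CCL19 and CCL21, fell 1.86-fold. Cxcr6, the CXCL16 receptor and the most abundant of these transcripts, was called higher at 1.10-fold. That call depended on scaling and on single samples, as given below. S1pr1 did not pass the test, and the gut homing receptor Ccr9 and the interferon-linked receptor Cxcr3 had few or no reads. Tests were made with limma on log2(normalised read count + 1), toyocamycin minus Control, two-sided, with Benjamini-Hochberg adjustment over the 16223 genes with a mean of at least 1.

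Of the 10 receptors, 9 passed the filter on low values, and all 9 had a mean of at least 1 in both groups. At an adjusted p under 0.05, 4 were higher, 3 lower and 2 did not pass, against a background of 65.9% of all genes called (32.8% higher and 33.1% lower). Of the 9, 4 were called with a log2 change of 1 or more in either direction, where 37.5% of all genes had one. In 7 of the 9 the groups did not overlap, as in 69.1% of all genes. These shares lie near the background, so the counts are no result about the receptors as a set. The median log2 change of the 9 was 0.15 and that of all genes was −0.03. Setting the samples to equal totals moved the median of all genes to −0.36. It called 4040 genes higher and 6897 lower, in place of 5316 and 5374. In that setting 3 receptors were higher and 4 lower, with a median of −0.20.

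**Figure D1:**
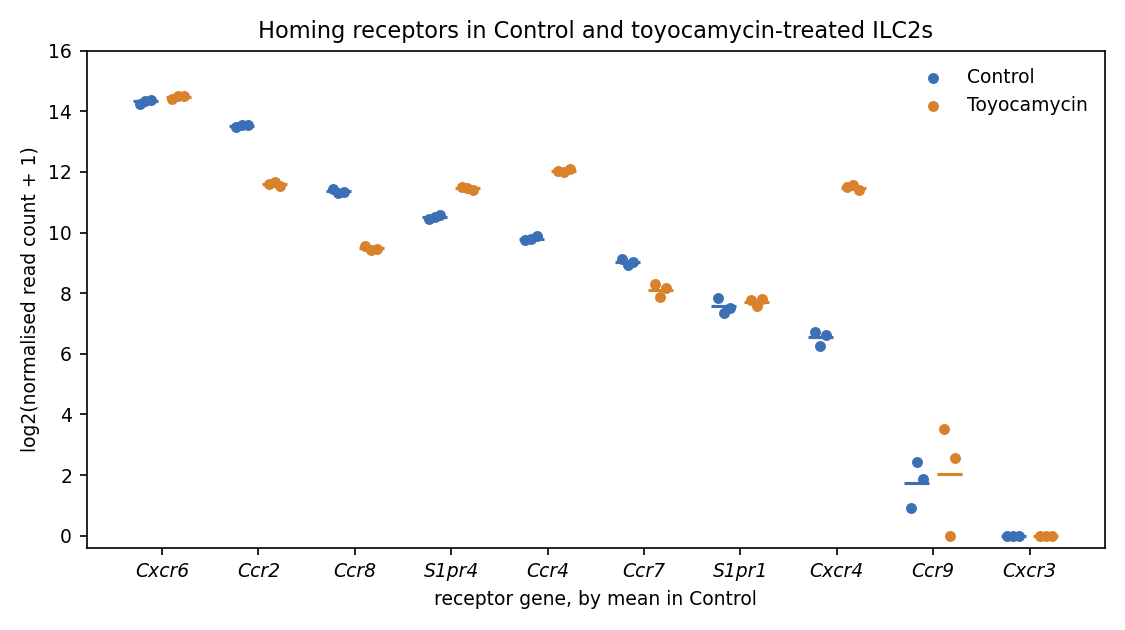
Level of the 10 receptor transcripts in each sample, as log2(normalised read count + 1), with Control in blue and toyocamycin in orange; points are samples and short lines are means of the 3 log2 values. The mean of Cxcr4 goes from 92.96 to 2874 normalised reads, and that of Ccr2 from 11847 to 3119, with heights to be compared within a gene, since they take no account of length.

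The sequences before the start sites are shown for the 4 receptors with a change of more than 2-fold, Cxcr4 and Ccr4, which rose, and Ccr2 and Ccr8, which fell. Each is the 250 bases before the RefSeq start (GRCm38.p6), read 5′ to 3′ on the strand of the gene. The gene spans given below are from GENCODE, and its starts differ. The Ccr4 window lies inside the GENCODE span of Ccr4. Most of the Ccr2 window and the end of the Ccr8 window also lie inside the spans of their genes. Capitals mark matches on either strand to 7 short motifs chosen after the values were seen. The motifs were AGATAA for GATA factors, AGGTCA for ROR factors, ACGTG for hypoxia-inducible factors, CACCC for KLF factors, TGTTTAC for FOXO factors and GCCAT for YY1, and the palindrome of NRF1.
Cxcr4 promoter, chr1:128592300-128592549, minus strand: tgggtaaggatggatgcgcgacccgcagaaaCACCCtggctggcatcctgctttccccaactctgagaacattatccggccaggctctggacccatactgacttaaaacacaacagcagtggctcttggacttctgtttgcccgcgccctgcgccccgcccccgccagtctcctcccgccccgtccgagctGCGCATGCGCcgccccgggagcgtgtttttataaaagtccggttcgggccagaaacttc
Ccr4 promoter, chr9:114496545-114496794, minus strand: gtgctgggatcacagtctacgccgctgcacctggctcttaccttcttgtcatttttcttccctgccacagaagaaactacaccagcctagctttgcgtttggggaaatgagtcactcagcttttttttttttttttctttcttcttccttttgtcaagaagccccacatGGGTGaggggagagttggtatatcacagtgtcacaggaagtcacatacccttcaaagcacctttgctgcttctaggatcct
Ccr2 promoter, chr9:124101933-124102182, plus strand: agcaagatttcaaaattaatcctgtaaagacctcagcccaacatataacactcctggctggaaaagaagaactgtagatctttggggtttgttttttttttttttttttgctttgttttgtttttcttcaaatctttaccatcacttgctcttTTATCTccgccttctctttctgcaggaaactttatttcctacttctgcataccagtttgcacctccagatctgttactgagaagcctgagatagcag
Ccr8 promoter, chr9:120091883-120092132, plus strand: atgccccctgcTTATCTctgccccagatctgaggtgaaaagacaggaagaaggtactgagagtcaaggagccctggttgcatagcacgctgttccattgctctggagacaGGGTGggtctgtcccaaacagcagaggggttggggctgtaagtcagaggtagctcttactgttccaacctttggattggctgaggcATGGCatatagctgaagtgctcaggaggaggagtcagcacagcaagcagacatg

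The Cxcr4 promoter held the full NRF1 palindrome, starting 59 bases before the start site, a match present in 0.782% of 32851 promoters of the same length. It also held the KLF motif 219 bases before the start, a motif found in 52.0% of promoters. Its GC content was 61.2% with 19 CpG dinucleotides, above the medians of 52.4% and 6 over all promoters. Ccr2, by contrast, had 37.2% GC and 1 CpG. Its promoter and that of Ccr8 each held the GATA motif on the other strand, starting 97 and 239 bases before the start, where 9.99% of all promoters hold this motif on either strand. In Ccr8, the KLF motif lay 140 bases and the YY1 motif 54 bases before the start, and in Ccr4 the KLF motif lay 81 bases before it, all on the other strand. Promoter sequence was found for 8 of the 10 genes. Among these 8, the KLF motif was present in 5, the GATA motif in 2, the YY1 motif in 2 and the NRF1 motif in 1, while the ROR, hypoxia and FOXO motifs did not occur in these windows. Over all promoters, 32.9% held the YY1 motif, 14.0% the ROR motif, 16.6% the hypoxia motif and 3.17% the FOXO motif. These matches are letters in a window and describe no binding.

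Cxcr4 (chromosome 1, 128588199 to 128592293, minus strand, GRCm38, GENCODE M21) had 105, 75.5 and 98.3 normalised reads in Control replicates 1 to 3 and 2876, 3027 and 2717 in toyocamycin replicates 1 to 3. Every toyocamycin sample lay far above every Control sample, and the samples of a group stayed close together. The means were 92.96 ± 15.5 (SD, n = 3) and 2874 ± 155, and the log2 change was 4.95 (95% interval 4.71 to 5.18, limma adjusted p = 1.2e-18). By size of log2 change in either direction it held rank 23 of the 16223 tested genes. No other annotated gene overlapped it, and none of its runs of 50 bases occurred in transcripts of another gene. With 10817 genes of a mean of at least 50 compared over the 6 samples, the closest log2 profiles relative to Control were those of A330023F24Rik, Gm19279, Gm10933, Angptl1 and A830082N09Rik (Euclidean distance 0.817 to 1.33). A330023F24Rik went from 30.4 ± 6.70 to 1090 ± 77.0, which was a 35.8-fold rise.

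Ccr4 (chromosome 9, 114490316 to 114504916, in the same annotation as the positions that follow) had 863, 882 and 936 normalised reads in Control and 4206, 4112 and 4360.2 with toyocamycin. The groups were far apart, with means of 894 ± 37.9 and 4226 ± 125 and a log2 change of 2.24 (95% interval 2.11 to 2.37, limma adjusted p = 1e-17). S1pr4 (chromosome 10, 81497747 to 81500132), found mainly on blood-borne and lymphoid cells, rose from 1384, 1457 and 1532 to 2928, 2848 and 2713. Its means were 1458 ± 73.5 and 2829.5 ± 109, and its log2 change was 0.96 (95% interval 0.83 to 1.09, limma adjusted p = 1.03e-11), and the lowest toyocamycin sample lay well above the highest Control sample.

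Among the receptors that fell, Ccr2 (chromosome 9, 124101950 to 124113557) had 11495, 11923 and 12122 normalised reads in Control against 3121, 3240.3 and 2997 with toyocamycin. Its means were 11847 ± 320.3 and 3119 ± 122, and the log2 change was −1.93 (95% interval −2.03 to −1.82, limma adjusted p = 7.58e-18). Ccr8 (chromosome 9, 120092114 to 120094906) had 2758, 2548 and 2603 in Control and 757, 687 and 696 with toyocamycin, with means of 2636 ± 109 and 713 ± 38.03. Its log2 change of −1.89 (95% interval −2.03 to −1.74, limma adjusted p = 6.61e-16) was close to that of Ccr2, and both genes had groups that lay far apart. Ccr4 and Ccr8, which are both known from type 2 lymphocytes, thus changed in opposite directions. Ccr7 (chromosome 11, 99144196 to 99155077) fell less, from 561, 482 and 518 to 317, 234 and 288, with means of 520.2 ± 39.6 and 279.5 ± 42.2 (log2 change −0.90, 95% interval −1.16 to −0.65, limma adjusted p = 1.26e-06). Its groups did not overlap.

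Cxcr6 (chromosome 9, 123806475 to 123811760) had 19558, 20990.3 and 21453 normalised reads in Control and 21914, 23190.1 and 23269 with toyocamycin. The lowest toyocamycin sample lay just above the highest Control sample, the means were 20667 ± 988 and 22791 ± 760.4, and the log2 change was 0.14 (95% interval 0.03 to 0.25, limma adjusted p = 0.0203). This direction depended on scaling: with the samples set to equal totals the log2 change was −0.21 and with quantile normalization it was −0.32, so that Cxcr6 was called lower in both. The call ended with TMM factors (0.089), without Control replicate 1 (0.10) and without toyocamycin replicate 3 (0.13). Cxcr6 lies within the span of Fyco1, which runs on the other strand, and 0 of its 1931 exonic bases overlap an exon of that gene. Fyco1 had 2169 ± 149 normalised reads in Control and 2289 ± 96.2 with toyocamycin.

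S1pr1 (chromosome 3, 115710433 to 115715072), the main exit receptor of lymphocytes, had 229, 162 and 183 normalised reads in Control and 217, 189.7 and 226 with toyocamycin. The groups overlapped, with means of 191 ± 34.3 and 211 ± 18.8, and the log2 change of 0.15 had a 95% interval of −0.19 to 0.49 (limma adjusted p = 0.44). Equal totals gave −0.20, and quantile normalization gave 0.66 with a call of higher. Ccr9 (chromosome 9, 123678439 to 123784330), whose annotated span overlaps that of Lztfl1 and Slc6a20a on the other strand, had 1, 5 and 3 reads in Control and 8, 0 and 4 with toyocamycin (log2 change 0.29, 95% interval −1.53 to 2.10, limma adjusted p = 0.795), with values on both sides of the floor in each group. Of its runs of 50 bases, 20.1% also occur in transcripts annotated to other genes. Cxcr3 (chromosome X, 101731535 to 101734269) had no read in any of the 6 samples, which allows up to 2.72 normalised reads in a Control sample and up to 3.96 in a toyocamycin sample at the floor of 3 reads. Tbx21, which encodes the factor T-bet that drives Cxcr3 in other lymphocytes, stood at 1.77 ± 0.0328 and 0.880 ± 1.52, below the floor.

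**Figure D2:**
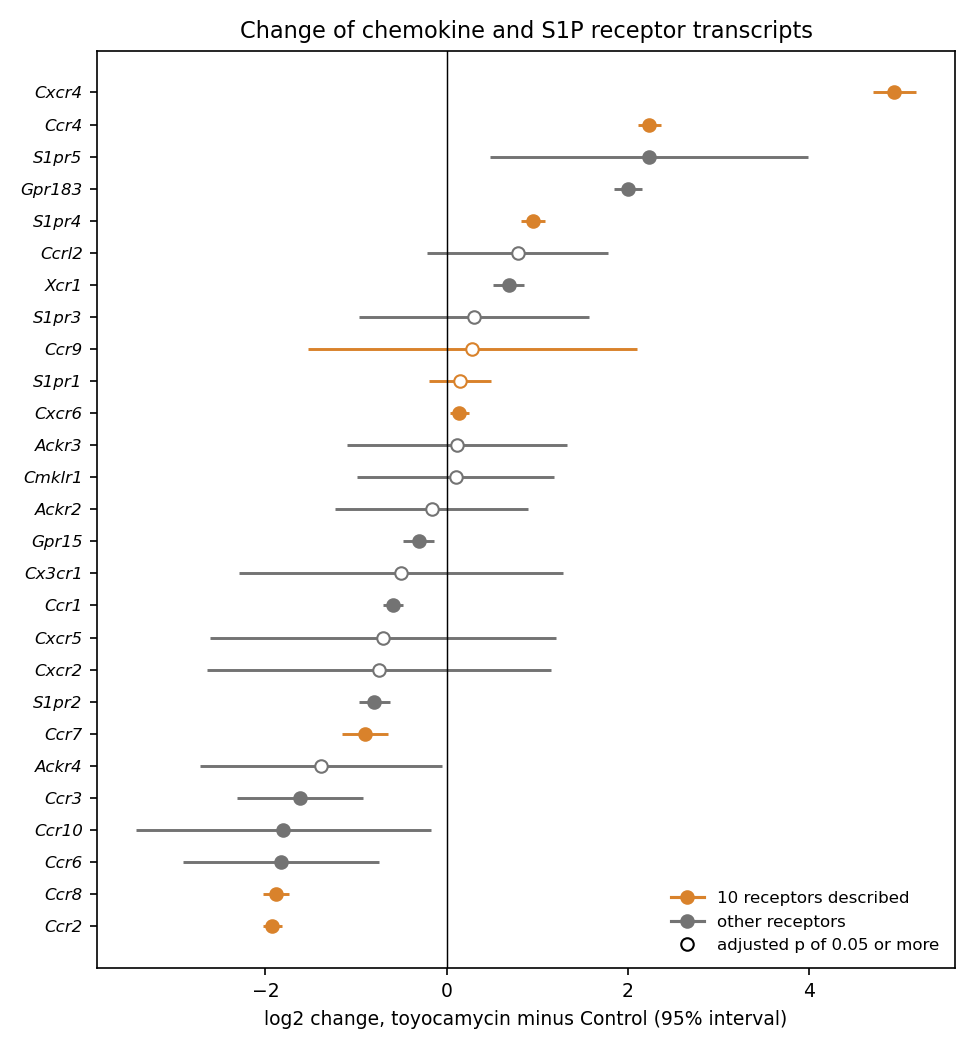
Log2 change (toyocamycin minus Control) with its 95% interval for tested receptors, the 10 receptors described in orange and other chemokine and S1P receptors in grey; open circles mark genes with an adjusted p of 0.05 or more. Cxcr4 lies at 4.95, and Ccr2 and Ccr8 lie together at −1.93 and −1.89.

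Levels can be set against each other only per length. Per kilobase of annotated exon, Cxcr6 led in Control with 10703 ± 511 normalised reads per kb, followed by Ccr8 (2244 ± 92.8), Ccr2 (1752 ± 47.4), S1pr4 (611 ± 30.8), Ccr4 (307 ± 13.0) and Ccr7 (263 ± 20.01). S1pr1 (62.8 ± 11.3) and Cxcr4 (51.5 ± 8.60) came next and overlapped, while the neighbours above them did not. With toyocamycin the order was Cxcr6 (11803 ± 394), Cxcr4 (1592 ± 85.7), Ccr4 (1452 ± 43.1), S1pr4 (1186 ± 45.6), Ccr8 (607 ± 32.4), Ccr2 (461 ± 18.02), Ccr7 (141 ± 21.3) and S1pr1 (69.2 ± 6.16). Cxcr4 moved from rank 8 to rank 2. Of the summed level per kb of the 10 receptors, Cxcr6 made up 66.9% ± 1.24 in Control and 68.2% ± 1.10 with toyocamycin. The share of Cxcr4 went from 0.323% ± 0.0584 to 9.20% ± 0.498 and that of Ccr4 from 1.92% ± 0.0338 to 8.39% ± 0.290, while that of Ccr8 went from 14.0% ± 0.976 to 3.51% ± 0.253 and that of Ccr2 from 10.96% ± 0.0538 to 2.67% ± 0.108. The sources used here do not name the annotation used for counting, and the place of Ccr2 depends on its length. With the longest RefSeq-matched transcript of 2.999 kb in place of 6.76 kb, Ccr2 had 3950.2 per kb in Control, above Ccr8, and 1040.1 with toyocamycin, also above Ccr8. Shares were also taken with RefSeq-matched lengths for all 10 receptors, such as 1.897 kb for Cxcr6, an alternative chosen after the values were seen. The share of Ccr2 was then 21.5% ± 0.0952 in Control and 5.73% ± 0.226 with toyocamycin, and that of Cxcr6 was 59.2% ± 1.10 and 66.2% ± 1.12.

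**Figure D3:**
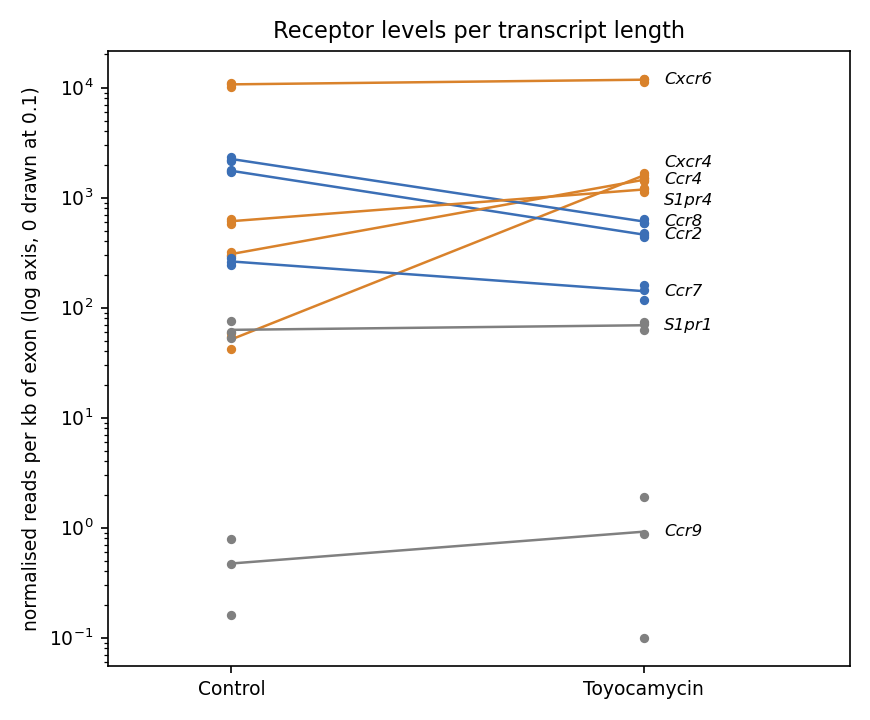
Normalised reads per kb of annotated exon in each sample (log axis, a value of 0 drawn at 0.1), with lines joining group means; orange marks receptors called higher, blue those called lower and grey those that did not pass. Cxcr3, with no reads, is left out. The line of Cxcr4 crosses those of 6 other receptors, from 51.5 to 1592 per kb.

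Of the 10 genes, 5 lie on chromosome 9, and Ccr9, Cxcr6 and Ccr2 belong to a cluster of chemokine receptor genes that also holds Xcr1, Ccr1 and Ccr3. Ccr1, Ccr3 and Ccr2, which follow each other in map order among the receptor genes named here, were lower, and Xcr1 was higher. Ccr3, the eotaxin receptor, fell from 76.4 ± 16.2 to 24.4 ± 6.47 (limma adjusted p = 0.000197), and Ccr1, a receptor for CCL3 and CCL5, fell 1.51-fold from 8658 ± 319 to 5732 ± 275 (limma adjusted p = 1.79e-09). Xcr1, the receptor for XCL1, rose 1.6-fold from 920.2 ± 111 to 1476 ± 35.2 (limma adjusted p = 1.69e-07). Of the runs of 50 bases in Ccr2 transcripts, 1.91% also occur in transcripts of other genes, so reads could be split between genes over a small part of its length.

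**Figure D4:**
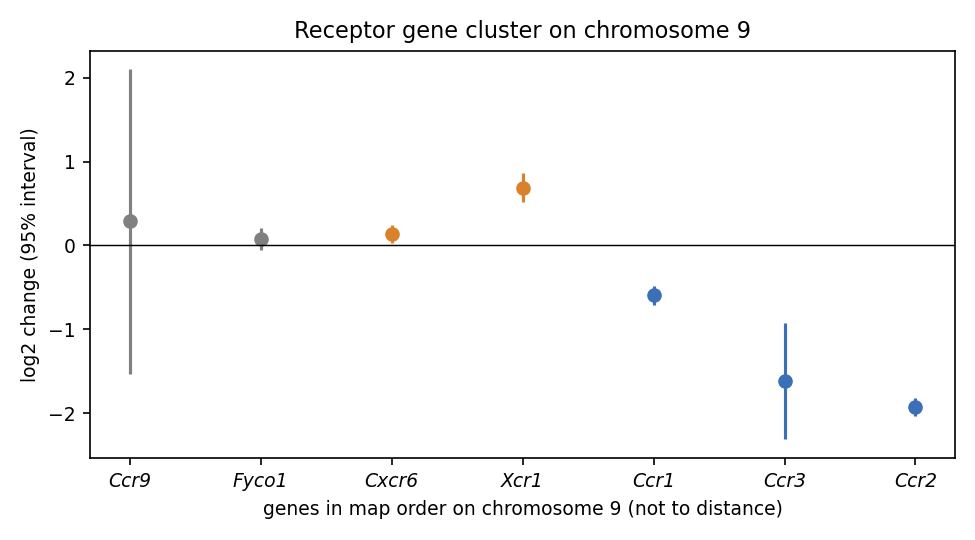
Log2 change with its 95% interval for 6 receptor genes of the chromosome 9 cluster and Fyco1, in map order without distances; orange is called higher, blue lower and grey not passed, and Cxcr6 was called lower with equal totals. The values run from 0.14 (Cxcr6) and 0.69 (Xcr1) to −0.60 (Ccr1), −1.62 (Ccr3) and −1.93 (Ccr2).

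Among 21 further chemokine, S1P and related homing receptors, 19 were tested, of which 3 were higher, 7 lower and 9 did not pass. This made 52.6% called, against 65.9% of all genes (median log2 change −0.50, against −0.03 for all genes). With equal totals 3 were higher and 8 lower, a setting in which lower calls over all genes went from 5374 to 6897. Gpr183, the oxysterol receptor EBI2 that positions lymphocytes in tissue, rose 4.01-fold from 741 ± 65.8 to 2971 ± 176 (log2 change 2.00, limma adjusted p = 9.67e-16). Besides Gpr183 and Xcr1, the third gene called higher was S1pr5, named after its values were seen, with no read in Control and 2, 2 and 8 reads with toyocamycin (limma adjusted p = 0.0246). Ccr6, the CCL20 receptor, fell from 23.4 ± 3.63 to 6.16 ± 2.58 (limma adjusted p = 0.0039). The large intestine homing receptor Gpr15 fell 1.24-fold, from 918.5 ± 58.2 to 742 ± 55.7 (limma adjusted p = 0.00273). S1pr2, an S1P receptor that opposes migration and was likewise named after its values were seen, fell 1.74-fold from 1097 ± 25.3 to 632 ± 53.9 (limma adjusted p = 1.74e-08).

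Ligands of the 10 receptors were scarce in these cells. Of 15 listed ligand genes, 9 had no read in any sample, including Ccl1, Ccl2, Ccl22, Cxcl9 and Cxcl11. Of the 4 tested, 1 was lower and 3 did not pass (median log2 change −0.29). This made 25.0% called, against 65.9% of all genes. All 4 had few reads, with group means of 5.37 to 52.3. Ccl25, which encodes the CCR9 ligand, fell from 38.3 ± 11.5 to 13.2 ± 6.16 (limma adjusted p = 0.00589). Cxcl12 stood at 38.5 ± 4.42 and 52.3 ± 27.1, Cxcl16 at 12.5 ± 8.04 and 9.67 ± 1.56 and Cxcl10 at 5.62 ± 3.95 and 5.37 ± 6.79, and none of these passed.

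Genes for an S1P lyase and an S1P phosphatase rose. Of 8 genes of S1P synthesis, export and breakdown, 2 were higher, 1 lower and 5 did not pass (median log2 change 0.80). The share called was 37.5%, below the 65.9% of all genes. The 5 that did not pass had low counts, with group means of 6.82 to 64.5, while the 3 called had group means of 1147 or more. The S1P lyase gene Sgpl1 rose 1.94-fold from 5530 ± 73.0 to 10737 ± 285, and the phosphatase gene Sgpp1 rose 3.16-fold from 1147 ± 117 to 3622 ± 136 (limma adjusted p = 1.71e-13 and 7.505e-15). Sphk2, a kinase that makes S1P, was 1.13-fold lower (1369 ± 30.3 against 1211 ± 68.8, limma adjusted p = 0.0274), a call that ended without Control replicate 1 (−0.16), Control replicate 2 (−0.18) or toyocamycin replicate 1 (−0.14). The kinase Sphk1 (10.6 ± 4.39 and 9.33 ± 4.08), the exporters Spns2 (27.5 ± 3.72 and 17.9 ± 1.64) and Mfsd2b (12.7 ± 2.19 and 22.6 ± 6.005), and the phosphatases Sgpp2 (6.82 ± 2.34 and 17.4 ± 7.04) and Plpp3 (35.7 ± 16.3 and 64.5 ± 24.9) did not pass. Of the 8 genes, 5 were called without toyocamycin replicate 2 and with a pseudocount of 5, and 6 with quantile normalization.

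The signalling genes between receptor and movement changed in both directions. Of 26, 11 were higher, 14 lower and 1 did not pass (median log2 change −0.19). The share called was 96.2%, against 65.9% of all genes, which were not matched to the 26 in read level. With equal totals 8 were higher and 18 lower, where calls over all genes also moved, to 4040 higher and 6897 lower from 5316 and 5374. Plcb2, a phospholipase C activated by Gi-coupled receptors, fell 9.76-fold from 1375 ± 45.1 to 141 ± 21.4. Dock2, the exchange factor that activates Rac in lymphocytes, fell 4.33-fold from 17224 ± 743 to 3974 ± 150, and Rac2, the blood cell form of Rac, fell 4.03-fold from 19299 ± 457 to 4791 ± 143 (limma adjusted p = 2.65e-18 and 2.38e-18). The widely expressed GTPase genes Rac1 (7086 ± 342 to 15956 ± 1311) and Cdc42 (16425 ± 369 to 34913 ± 1356) rose 2.25-fold and 2.13-fold. Gna13, which encodes the G protein subunit used by S1PR2 to restrain movement, rose 5.12-fold from 7383 ± 208 to 37815 ± 999 (limma adjusted p = 3.625e-19).

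Most of the listed genes that switch receptors off were lower. Among 16 genes of receptor desensitisation, which include RGS proteins and receptor kinases, 11 passed as lower, 1 as higher and 4 in neither direction (median log2 change −0.62), where 33.1% of all genes were lower and 65.9% called. With equal totals 13 were lower and 1 higher, but that setting also raised lower calls over all genes from 5374 to 6897. The receptor kinase genes Grk3 and Grk6, whose products phosphorylate activated receptors, fell 3.04-fold (103.5 ± 28.5 to 34.1 ± 5.71) and 2.26-fold (4968 ± 284 to 2198 ± 152). Rgs10, which shortens Gi signals, fell 2.9-fold from 534 ± 55.4 to 184 ± 16.5. Rgs2, which acts mainly on Gq, was the gene that rose, 3.54-fold from 294 ± 37.6 to 1041 ± 95.7 (limma adjusted p = 1.92e-12).

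Of 8 regulators of homing receptors, 5 were higher and 3 did not pass (median log2 change 0.89). The 62.5% called lie near the 65.9% of all genes, of which 32.8% were higher. Foxo1, a factor known to drive Klf2 and Ccr7 in T cells, rose 1.71-fold from 2989.8 ± 94.1 to 5112 ± 232. Hif1a, the hypoxia factor known to act on Cxcr4, rose 4.31-fold from 17222 ± 558 to 74178 ± 2874. Nrf1 rose 2.6-fold from 1302 ± 14.3 to 3391 ± 181, and its motif was among those chosen after the values were seen. Yy1, reported to repress human CXCR4, rose 3.4-fold from 2878 ± 97.3 to 9783 ± 513. Whether any of these factors had a part in the change of Cxcr4 was not tested. Gata3, the defining factor of ILC2s, rose 2.02-fold. Klf2, the factor known to drive S1pr1 in T cells, had 118 ± 7.01 normalised reads in Control and 118 ± 30.5 with toyocamycin. Its log2 change of −0.02 (limma adjusted p = 0.934) became 0.55 with quantile normalization, where it was called higher. Cd69, whose product binds S1PR1 and removes it from the surface, stood at 6354 ± 269 and 5877 ± 499 (log2 change −0.12, limma adjusted p = 0.0998) and was called lower with equal totals (−0.46), quantile normalization (−0.60), TMM factors (−0.17), edgeR (−0.15) and without toyocamycin replicate 2 (−0.17).

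Adhesion molecules that act with these receptors at the vessel wall were also divided. Of 14, 8 were lower, 4 higher and 2 did not pass (median log2 change −0.19). At equal totals 10 were lower and 3 higher, while lower calls over all genes went from 5374 to 6897. In the main test the share called was 85.7%, against 65.9% of all genes, without matching for read level. Fut7, the fucosyltransferase that completes selectin ligands, fell 8.22-fold from 149 ± 34.6 to 18.1 ± 2.24, Itgb2, the common chain of the leukocyte integrins, 3.31-fold from 9949 ± 182 to 3009 ± 81.0, and Itga1 from 64.4 ± 5.02 to 21.03 ± 9.78. Itgb1 rose 3.99-fold from 2146 ± 32.2 to 8553 ± 230, the hyaluronan receptor gene Cd44 1.79-fold and Gcnt1, a glycan branching enzyme, 1.39-fold, a call that quantile normalization ended (0.028). The chains of the gut homing integrin α4β7 changed little. Itgb7 was 1.16-fold lower (24786 ± 300.0 against 21372 ± 973, limma adjusted p = 0.000699), and Itga4 1.12-fold lower (1768 ± 78.8 against 1572 ± 90.05, limma adjusted p = 0.0285). Itga4 lost its call when 1 sample was left out, whether Control replicate 1 (−0.15) or 2 (−0.16) or toyocamycin replicate 1 (−0.18) or 3 (−0.12).

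**Figure D5:**
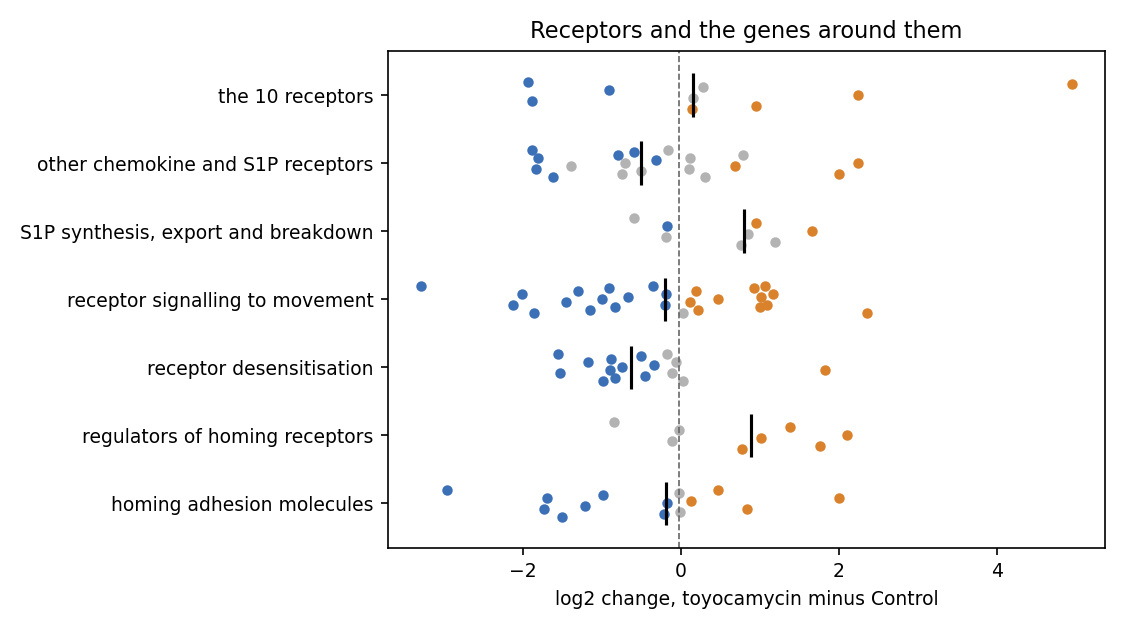
Log2 change of each tested gene by group, orange higher, blue lower and grey not passed, with the median of each group as a black line and the median of all genes (−0.03) dashed; vertical spread of points has no meaning. Receptor desensitisation genes have 11 of 16 lower with a median of −0.62, while the 9 tested of the 10 receptors spread from −1.93 to 4.95.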

How the data were processed

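RNA from 6 samples was extracted with TRIzol and sequenced from standard Illumina libraries, per the labels' protocols. The submitters' processing notes name cutadapt 4.7, FastQC and the build mm10. An aligner, a counter and a strand setting were not given in the sources used here. Although the file carries FPKM in its name, the deposited values are a signal of read counts over a size factor: every column holds whole multiples of 1 step that is the same for all genes. With a tolerance of 0.01 reads, 100% of deposited values came out as whole reads.

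The main test was limma 3.58.1 (R 4.3.3) with a mean-variance trend, run on log2 of the value plus 1, on the 16223 genes whose mean reached 1. The pseudocount of 1 makes log2 changes understate those of low genes, while folds are ratios of group means. On the recovered reads edgeR 4.0.16 called 4980 genes higher and 5329 lower, and DESeq2 1.42.0 was also run. Counts of replicate pairs differed beyond sampling noise, with chi-square values of 3.96 to 7.76 for each degree of freedom, so no pair was treated as 1 library deposited again. This does not show that samples are independent.

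Lengths and positions are from GENCODE M21 (GRCm38), promoters from RefSeq (GRCm38.p6). The receptors and gene lists were chosen with earlier results of these data known. Named were all 10 receptors, every tested gene of lists with at most 8, and from longer lists up to 3 higher and 3 lower genes with the largest changes (a mean of at least 20 in 1 group, groups apart), plus 8 genes chosen by name. A few results under this rule are not reported here. Intervals and floors cover counting or replicate error only.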

Additional observations from a re-analysis of the deposited data

How the results depend on the processing

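In the 16 alternatives, Cxcr4, Ccr2, Ccr4, Ccr7, Ccr8 and S1pr4 kept their direction and call, with log2 changes of 4.60 to 5.04, −2.38 to −1.90, 1.89 to 2.27, −1.25 to −0.56, −2.23 to −1.85 and 0.61 to 0.99. Equal totals moved the median of all genes from −0.03 to −0.36, so that 4040 genes were higher and 6897 lower in place of 5316 and 5374, and reversed Cxcr6 (−0.21), S1pr1 (−0.20) and Cxcl12 (−0.056). Quantile normalization reversed Cxcr6 (−0.32) and Klf2 (0.55), called S1pr1 higher (0.66) and called 6 genes of S1P metabolism in place of 3, where a pseudocount of 5 called 5. TMM factors ended the call of Cxcr6 (0.089), DESeq2 turned Klf2 (0.011), and a pseudocount of 0.1 turned Ccr9 (−0.41).

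With 1 sample left out, the log2 change ran from 0.10 to 0.17 for Cxcr6, −0.47 to 1.30 for Ccr9, −0.074 to 0.76 for Cxcl12, −1.23 to 0.11 for Cxcl10, −0.49 to 0.26 for Cxcl16, −0.50 to 0.16 for Sphk1 and −0.22 to 0.14 for Klf2, and 2 to 5 S1P metabolism genes were called. The cause of these shifts was not tested. Of 698 values for 44 other named genes, 662 kept direction and call.

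Deviations of same-numbered samples correlated at −0.02, 0.06 and −0.12, and those of other-numbered samples at −0.22 to 0.19. Samples did not each correlate best with their own number. With only 3 samples in a group, each taken relative to its group mean, these correlations cannot decide whether the numbers pair samples. With the replicate block 5272 genes were higher and 5298 lower, and 4 of the 10 receptors were higher and 3 lower, as without it; S1P metabolism calls became 4. Ccr9 and Tbx21 had few reads and Cxcr3 none, so falls and small rises in them were not detectable at this depth.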
